A study of Rattus norvegicus with 10 samples.

Results

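Cx3cr1, P2ry12, P2ry13, Tmem119, Gpr34, Csf1r, Selplg and Sall1 are 8 genes used as marks of homeostatic microglia, the resting state of the resident macrophages of the brain. They were chosen by name, with earlier results of these data known. All 8 were among the 14166 genes of the bulk RNA-seq table and among the 25399 genes of the snRNA-seq matrices. The question was whether their RNA differed 3 weeks after traumatic brain injury (TBI), and whether a difference lay in the number of microglia or in the level within each microglial nucleus.

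The tissue was the ipsilateral hippocampal dentate gyrus of male Sprague-Dawley rats, with no allele named in the labels. There were 6 bulk RNA-seq libraries, from 3 sham and 3 TBI rats, and 4 snRNA-seq libraries, from 2 TBI rats and from 1 sham and 1 naïve rat that served as controls. TBI rats had a craniectomy and, 3 days later, a lateral fluid percussion injury, a pressure pulse of fluid onto the closed dura. Sham rats had the same surgery and anesthesia without the pulse, whereas the naïve rat had no surgery, so the controls of the snRNA-seq differ in surgery from each other. The rats were young adults at injury, and no age per rat is given in the labels. The bulk libraries held 25121893 to 44649404 estimated counts, and the median nucleus held 1647 to 2652 UMIs, depending on the rat.

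Microglia survey the tissue with receptors that read signals from neurons and from damaged cells. Csf1r is the receptor for the growth factors Csf1 and Il34 on which microglia depend to survive. Cx3cr1 binds the neuronal chemokine Cx3cl1, P2ry12 and P2ry13 sense ADP, and Gpr34 is a receptor for lysophosphatidylserine. Tmem119 is a membrane protein that sets microglia apart from most other macrophages, Selplg is the ligand of selectins on leukocytes, and Sall1 is a transcription factor that maintains microglial identity. In many injury models the RNA of these genes falls in activated microglia, while the number of microglia can rise.

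In bulk tissue all 8 genes were higher in TBI than in sham by their fitted Log2FC, from 0.55 for Selplg to 1.19 for Csf1r, but none passed an FDR of 0.01 or 0.05 by edgeR's quasi-likelihood test. Summed over the 8 genes, the level was 237, 249 and 231 CPM (counts per 1000000 counts of the library) in sham replicates 1, 2 and 3 and 388, 644 and 403 CPM in TBI replicates 1, 2 and 3. Every TBI library lay above every sham library in this sum, and TBI replicate 2 was the highest. In bulk tissue fewer or more cells of a type and less or more RNA per cell cannot be told apart. These CPM were obtained by undoing the log2 of the deposited table, and they compare 1 gene across libraries, not genes with each other.

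The growth factor receptor Csf1r had the largest Log2FC of the 8. It stood at 109, 118 and 95.5 CPM in sham and at 189, 363 and 202 CPM in TBI, 107 ± 11.1 against 251 ± 96.6 (mean ± SD, n = 3 each). The TBI libraries did not overlap with sham, and their spread came mostly from the high TBI replicate 2. The Log2FC was 1.19 (SE 0.26), with an unadjusted p of 0.00201 and an FDR of 0.196 in edgeR. DESeq2 on the same counts gave an FDR of 0.000944, the only one of the 8 genes under 0.01 by that tool.

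Of the receptors for signals from neurons and damaged cells, Cx3cr1 had 17.8, 20.7 and 17.5 CPM in sham and 32.7, 56.3 and 25.6 CPM in TBI. P2ry12 had 12.9, 11.7 and 10.7 CPM in sham and 20.6, 40.0 and 16.9 CPM in TBI. For both receptors the groups did not overlap, with TBI replicate 2 the highest and TBI replicate 3 the lowest of the injured rats. Log2FC was 1.001 (SE 0.28, edgeR unadjusted p = 0.00894, FDR 0.293) for Cx3cr1 and 1.11 (SE 0.32, edgeR unadjusted p = 0.0094, FDR 0.300) for P2ry12. DESeq2 gave both an FDR of 0.0417.

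Gpr34 ordered the libraries as Cx3cr1 did, at 12.7, 13.9 and 11.7 CPM in sham and 21.2, 34.3 and 17.0 CPM in TBI. P2ry13, which lies next to P2ry12 on the chromosome, was read at 4.17, 3.8 and 3.2 CPM in sham and at 5.92, 9.10 and 4.43 CPM in TBI. In neither receptor did the groups overlap, though the lowest TBI library of P2ry13 was close to the highest sham library. The Log2FC was 0.88 (SE 0.26, edgeR unadjusted p = 0.0105) for Gpr34 and 0.77 (SE 0.30, edgeR unadjusted p = 0.0352) for P2ry13, with FDR of 0.313 and 0.459.

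Tmem119 and Selplg, also neighbours on a chromosome, ordered the libraries in another way. Tmem119 had 24.9, 14.2 and 29.8 CPM in sham and 30.5, 34.8 and 41.8 CPM in TBI. Selplg had 32.8, 26.5 and 39.4 CPM in sham and 49.1, 38.3 and 61.5 CPM in TBI. In both genes sham replicate 2 was the lowest library and replicate 3 the highest of each group, and for Selplg TBI replicate 2 fell below sham replicate 3. For Tmem119 the groups just failed to overlap. The Log2FC was 0.60 (SE 0.26, edgeR unadjusted p = 0.0561, FDR 0.542) for Tmem119 and 0.55 (SE 0.20, edgeR unadjusted p = 0.0299, FDR 0.430) for Selplg. Sham replicate 2 was also the library with the most oligodendrocyte RNA, its 8 myelin marker genes summing to 17398 CPM against 5510 and 6826 CPM in the other sham libraries. The part of this in the low Tmem119 and Selplg values was not tested.

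Sall1, the only transcription factor of the 8, overlapped between groups. It had 22.5, 41.0 and 23.1 CPM in sham and 38.2, 68.7 and 33.5 CPM in TBI, so that sham replicate 2 lay above 2 of the 3 TBI libraries. The Log2FC of 0.66 (SE 0.34) had an edgeR unadjusted p of 0.0902 and an FDR of 0.624.

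**Figure D1:**
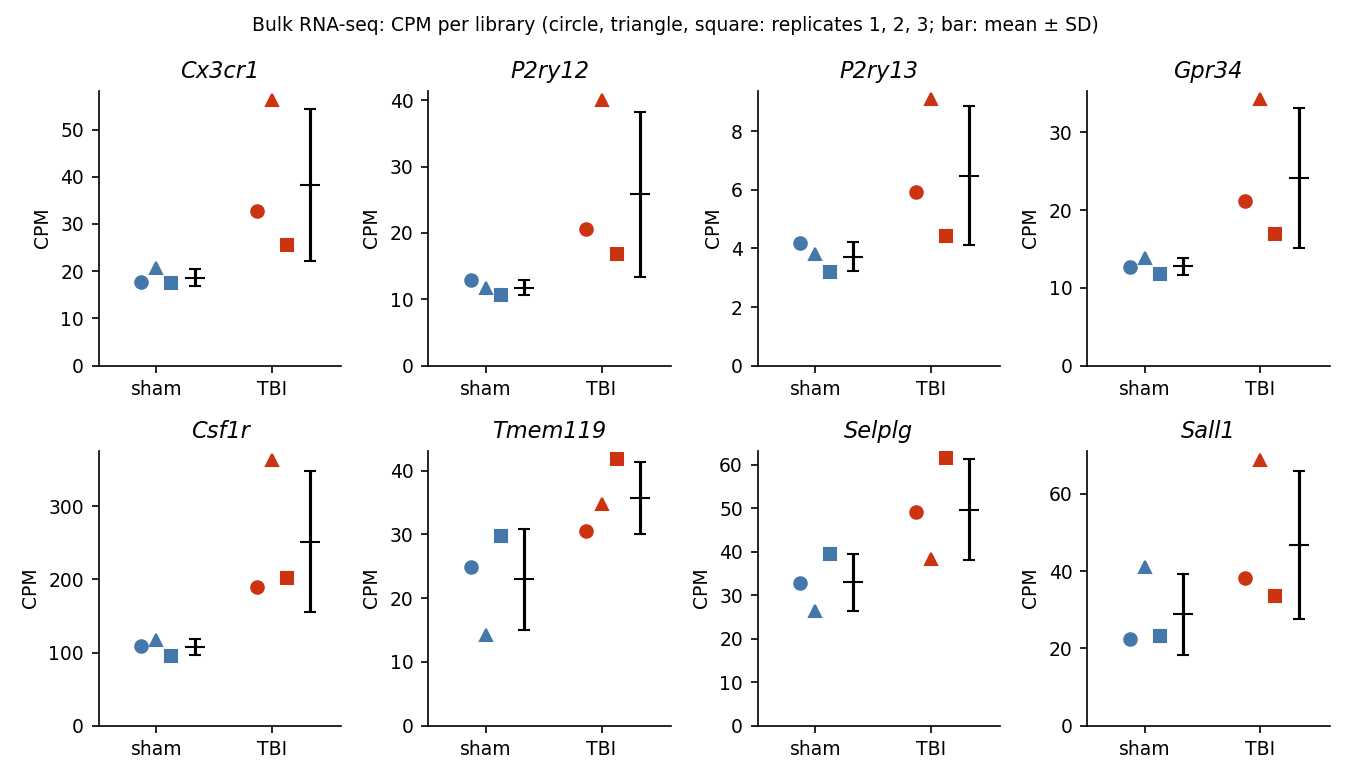
CPM of each of the 8 genes (y axis, from 0) in each bulk library, with sham and TBI side by side on the x axis, circle, triangle and square for replicates 1, 2 and 3 and black bars for the mean ± SD (n = 3 each). TBI replicate 2 is the highest TBI library in 6 of the 8 genes, and only Selplg and Sall1 overlap between groups.

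The counts over the 8 genes stand beside the same counts over all 14166 genes. All 8 had a Log2FC above 0, against 49.4% of all genes, and 6 of the 8 had every TBI library above every sham library, against 11.7%. An unadjusted p under 0.05 with a higher level in TBI was reached by 6 of the 8 in edgeR, against 8.2% of all genes. At an FDR of 0.01 edgeR called 0 of the 8 and 0% of all genes. DESeq2 called Csf1r alone, against 1.17% of all genes. It placed Csf1r, Cx3cr1 and P2ry12 under 0.05, where 338 of the 14166 genes were higher and 11 lower. When DESeq2 p-values were adjusted only over genes with p under 0.05, which was the procedure of the study, 4 of the 8 (Csf1r, Cx3cr1, P2ry12 and Gpr34) fell under 0.01, against 3.26% of all genes. None of the 8 reached a Log2FC of 1.5, the size the study asked of a DEG. The median Log2FC of the 8 was 0.83, and that of all genes was -0.0029.

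TBI replicate 2 carried a good part of the size. Without it the median Log2FC of the 8 was 0.58, and the values of Cx3cr1, P2ry12, Csf1r and Sall1 became 0.58, 0.61, 0.80 and 0.25. All 8 remained above 0 with any 1 library left out. The surgeries fell in a spring period (sham replicates 1 and 2 and TBI replicate 1) and an autumn period (sham replicate 3 and TBI replicates 2 and 3). Within spring the TBI minus sham difference in mean log2 CPM ran from 0.33 for Sall1 to 0.77 for Cx3cr1, and within autumn from 0.30 for Selplg to 1.51 for Csf1r. The receptors Csf1r, Cx3cr1, P2ry12, P2ry13 and Gpr34 and the factor Sall1 had the larger difference in autumn, while Tmem119 (0.70 and 0.36) and Selplg (0.74 and 0.30) had it in spring.

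Across the 6 libraries the log2 CPM of the 8 genes split into 6 genes and a pair. Pearson r over all 28 pairs ran from -0.00091 (Selplg with Sall1) to 0.999 (Cx3cr1 with Gpr34), with a median of 0.85. Tmem119 and Selplg had r = 0.88 with each other, and r between Selplg and each of the other 6 genes was at most 0.42. These are descriptions over 6 libraries that share the group difference, and no p is given.

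The genes whose pattern over the 6 bulk libraries was most like the mean of the 8 were Unc13d, Dnase2, Npc2, Tmem176b, Epsti1, Fgd2, Klhl6, Tacc3, Mfng and Rnaset2. Their Pearson r with the mean centred log2 CPM of the 8 genes was 0.996 to 0.999 among 13616 genes searched, and 0.979 to 0.997 after the group means were taken out. Unc13d is a regulator of granule release, Dnase2, Npc2 and Rnaset2 act in lysosomes, and Mfng modifies Notch receptors. None of the 10 stood on the lists of microglia genes used here. Their Log2FC ran from 0.43 for Mfng to 1.65 for Fgd2.

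Promoter sequence was looked at because most of the 8 genes ranked the bulk libraries alike. Of the 8 genes Cx3cr1, P2ry13, Gpr34 and Csf1r have an entry in the RefSeq promoter table (GRCr8, a newer build than the one the reads were mapped to), while P2ry12, Tmem119, Selplg and Sall1 are named only. The 250 bases upstream of the start were searched on both strands for GAGGAA, the core of the element bound by the myeloid factor PU.1, which Spi1 encodes. The stretches are shown 5′ to 3′ on the strand of the gene, for Cx3cr1 at chr8:128677067-128677316, for P2ry13 at chr2:145622785-145623034 and for Gpr34 at chrX:11785837-11786086, each on the minus strand, with a match in capitals.
Cx3cr1: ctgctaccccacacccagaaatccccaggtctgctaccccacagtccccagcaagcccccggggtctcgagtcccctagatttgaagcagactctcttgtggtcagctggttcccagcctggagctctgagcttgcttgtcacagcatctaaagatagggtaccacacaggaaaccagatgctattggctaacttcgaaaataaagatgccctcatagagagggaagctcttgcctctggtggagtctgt
P2ry13: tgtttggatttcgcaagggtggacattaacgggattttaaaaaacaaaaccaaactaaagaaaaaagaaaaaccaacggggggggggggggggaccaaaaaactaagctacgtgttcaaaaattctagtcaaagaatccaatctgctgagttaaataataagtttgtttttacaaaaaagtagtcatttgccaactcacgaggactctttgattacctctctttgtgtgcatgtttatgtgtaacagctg
Gpr34: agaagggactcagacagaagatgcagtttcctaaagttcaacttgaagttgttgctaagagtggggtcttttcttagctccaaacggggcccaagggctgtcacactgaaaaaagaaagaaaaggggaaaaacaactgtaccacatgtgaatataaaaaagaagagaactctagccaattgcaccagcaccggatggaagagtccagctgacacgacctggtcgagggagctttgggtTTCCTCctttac
Gpr34 held 1 match, read as TTCCTC, whose first base lies at position -12 from the start, and Csf1r held 2, whose first bases lie at -229 and -95. Cx3cr1 and P2ry13 held 0. The motif was present in 7812 of the 33469 promoters of the table (23.3%) and in 2 of the 5 genes used below to find microglial nuclei. A match is a run of letters and not a known site.

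A set of 5 other genes that mark microglia and some other leukocytes served as a yardstick. Inpp5d and Ptprc encode phosphatases of immune signaling, Dock8 and Apbb1ip act on the cytoskeleton and adhesion, and Ikzf1 is a transcription factor of blood cells. In bulk their Log2FC were 0.49 for Inpp5d, 0.78 for Apbb1ip, 0.99 for Dock8, 1.14 for Ikzf1 and 1.49 for Ptprc, and 4 of the 5 had an edgeR unadjusted p under 0.05 (Inpp5d 0.231). Their mean log2 CPM was 2.85, 3.43 and 3.00 in sham and 3.87, 4.62 and 3.88 in TBI. The TBI libraries lay above all sham libraries, by 1.02 (two-sided exact permutation p = 0.1, and 3 against 3 cannot go lower).

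Set against this yardstick in the same library, the 8 genes differed less between groups than in their own CPM. The TBI minus sham difference of log2 CPM relative to the 5 genes was 0.15 (SE 0.15) for Csf1r, 0.01 (SE 0.25) for P2ry12, -0.07 (SE 0.17) for Cx3cr1 and -0.17 (SE 0.17) for Gpr34. It was -0.28 (SE 0.25) for P2ry13, -0.33 (SE 0.56) for Tmem119, -0.34 (SE 0.15) for Sall1 and -0.44 (SE 0.53) for Selplg. Only Sall1 had all TBI libraries on one side of sham, below it, with the exact permutation p of 0.1 that is the smallest possible. Adjusted over the 8 genes, this p was 0.8. The exact permutation p of Sall1 was 0.1 without Inpp5d, Dock8 or Apbb1ip in the yardstick, 0.2 without Ikzf1 and 0.5 without Ptprc. It was 0.6 against other homeostatic genes and microglial transcription factors. The share of all genes that separate in this way was not computed. For the other 7 genes the groups overlapped, with exact permutation p of 0.4 to 1. The median of the 8 relative values was -0.22, and it rested on the yardstick, on single libraries and on the period. It was -0.06 without sham replicate 1, -0.11 without TBI replicate 3, -0.12 without TBI replicate 2 or sham replicate 3, and -0.0058 within the spring surgeries. In the other direction, the median was -0.29 without TBI replicate 1, -0.25 without sham replicate 2, -0.33 without Inpp5d and -0.28 without Apbb1ip. Without Ptprc it was -0.08, and against the other homeostatic genes and microglial transcription factors it was -0.04, with 4 genes higher and 4 lower. With standard errors of this size, the values do not show that the 8 genes and the yardstick changed alike.

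**Figure D2:**
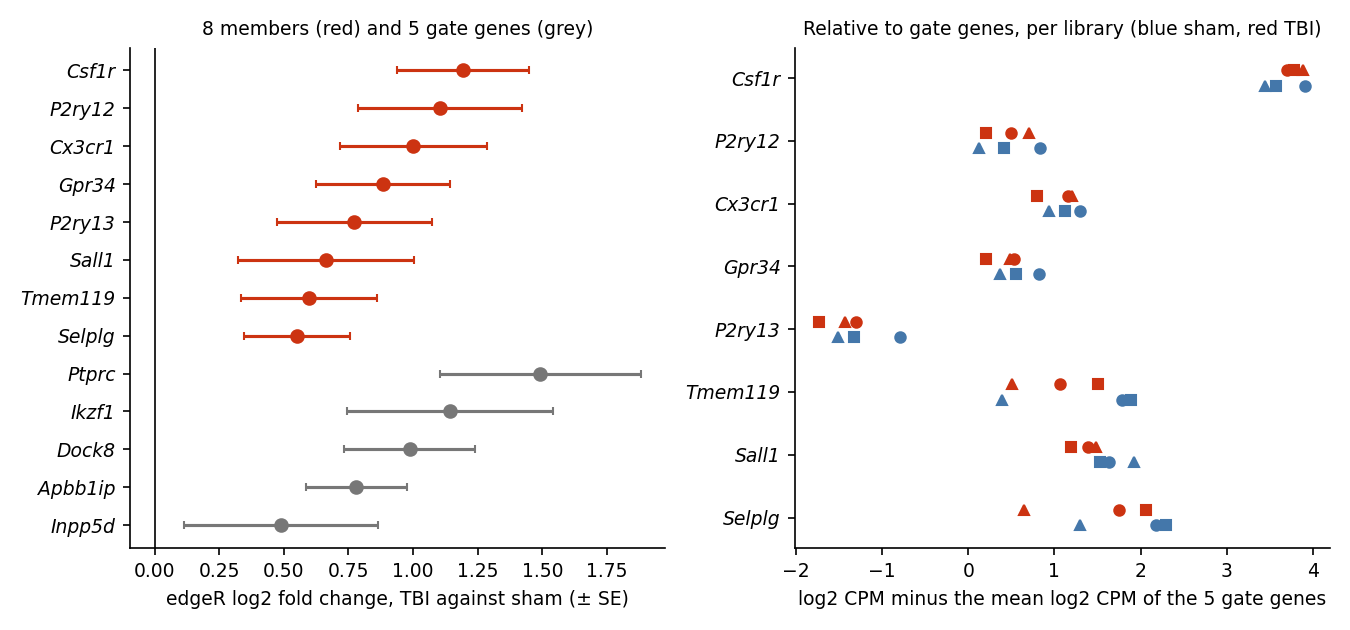
Left, Log2FC of TBI against sham in bulk (x axis, edgeR, bars ± SE) for the 8 genes in red and the 5 yardstick genes in grey. Right, log2 CPM of each of the 8 genes minus the mean log2 CPM of the 5 yardstick genes (x axis) in each library, sham in blue and TBI in red, with circle, triangle and square for replicates 1, 2 and 3; the Log2FC of the 8 genes lie between 0.55 and 1.19, whereas on the right only Sall1 has its groups apart.

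Other lists of microglial genes gave context in bulk. Of 28 further homeostatic genes measured, 27 were higher in TBI, 21 with an edgeR unadjusted p under 0.05 and none with an FDR under 0.01, and their median Log2FC was 0.84. The 3 with the smallest p were the lysosomal protease Ctss (0.92, edgeR unadjusted p = 0.00102), the calcium-binding protein Aif1, also known as Iba1 (1.07, edgeR unadjusted p = 0.00157), and the Fc receptor-like gene Fcrl2 (2.74, edgeR unadjusted p = 0.00208). Of 10 transcription factors of microglia 9 were higher and 5 had an unadjusted p under 0.05, among them Irf8 (1.83) and Spi1 (1.32). Of 14 measured genes of the disease-associated microglial program 13 were higher, 10 with an unadjusted p under 0.05.

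Of the ligands and partners of the 8 genes, 3 of 8 measured had an edgeR unadjusted p under 0.05, all higher in TBI. Tgfb1, the cytokine that sustains the homeostatic program, had the smallest, with 10.7, 11.6 and 10.5 CPM in sham and 23.6, 37.8 and 28.7 CPM in TBI. Its libraries did not overlap, and its Log2FC was 1.42 (SE 0.19, edgeR unadjusted p = 9.37e-05, FDR 0.196, DESeq2 FDR 3.15e-07). The ectonucleotidase Entpd2, which breaks down ATP, had a Log2FC of 0.62 (edgeR unadjusted p = 0.00401), and Csf1 one of 0.45 (edgeR unadjusted p = 0.0161). The other ligand of Csf1r, Il34, had -0.0036, the Cx3cr1 ligand Cx3cl1 had -0.09, the selectin Sele had 0.11, Nt5e, which makes adenosine from AMP, had -0.05 and Hpgd, a prostaglandin-degrading enzyme, had 0.11.

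Of the lists for other immune cells, that of border macrophages alone had summed levels that did not overlap between the bulk groups. All 9 border macrophage genes in the bulk table were higher in TBI, and their sum was 19.5 to 23.0 CPM in sham and 34.4 to 97.6 CPM in TBI, highest in TBI replicate 3. The sums of 5 blood monocyte genes overlapped, at 63.2 to 116 CPM in sham and 92.7 to 218 CPM in TBI. So did those of 3 lymphocyte genes (42.7 to 160 and 78.8 to 158 CPM). Of the monocyte genes 3 had a Log2FC above 0. These, Itgal, Fn1 and Plac8, had every TBI library above every sham library, against 11.7% of all genes. Vcan, also on the oligodendrocyte precursor list, and S100a9 did not. Of the lymphocyte genes Cd4 separated in this way, and Cd3e and Bcl11b did not. Bcl11b made up most of the lymphocyte sum, at 152, 56.9 and 35.6 CPM in sham and 134, 41.9 and 81.7 CPM in TBI. Cx3cr1, Csf1r and Selplg are also expressed by such immune cells, and the part of these cells in the bulk values was not tested.

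Markers of other brain cells differed between the bulk groups as well. Of 7 astrocyte genes 6 had a Log2FC above 0 and every TBI library above every sham library, 3 with an edgeR unadjusted p under 0.05, among them the filament gene Gfap (1.66). All 6 pericyte genes and all 5 endothelial genes had a Log2FC above 0, with 4 and 2 at an unadjusted p under 0.05. All 8 oligodendrocyte genes had a Log2FC below 0 (median -0.72, 1 at an unadjusted p under 0.05), as had all 6 glutamatergic and all 5 GABAergic genes (medians -0.24 and -0.24, 0 at an unadjusted p under 0.05 in edgeR). None of these genes passed an FDR of 0.01 in edgeR, and Gfap alone did in DESeq2. The part of such differences in the CPM of the 8 genes was not tested.

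In snRNA-seq, microglial nuclei were found by RNA of the 5 yardstick genes alone, so that the 8 genes took no part. A nucleus passed this gate with at least 3 UMIs (unique molecular identifiers, 1 per RNA molecule captured) from at least 2 of the 5 genes that made up at least 0.5% of its UMIs. This left 905 of 55124 nuclei, 139 from TBI 1, 371 from TBI 2, 134 from sham and 261 from naïve. The gated nuclei were shallow, with medians of 791, 609, 726.5 and 749 UMIs against 2280, 1647, 1897 and 2652 over all nuclei. The gate itself selects for this, because the floor of 0.5% asks more gate UMIs of a deeper nucleus. The mean counts were 806, 657, 742 and 769 UMIs per gated nucleus. With a gate of at least 3 of the 5 genes and no such floor, they were 3078, 1353, 1407 and 4158. Shares and levels in gated nuclei therefore depend on the depth of each rat's library. Between any pair of libraries 46 to 64 cell barcodes were shared, at most 0.455% of the smaller library.

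Summed, the 8 genes were far higher in gated nuclei than in nuclei without any UMI of the 5 gate genes. RNA of other classes was present in the gated nuclei too. Nuclei with gate UMIs that failed the gate were in neither set. At least 1 UMI of the 8 genes was found in 64.7%, 61.7%, 47.0% and 82.0% of gated nuclei of TBI 1, TBI 2, sham and naïve, and in 54.7%, 52.8%, 35.1% and 72.8% after each nucleus was thinned to 500 UMIs. Csf1r alone had a UMI in 36.0%, 33.2%, 22.4% and 54.4% of gated nuclei. In glutamatergic neurons, which should lack it, the shares were 1.79%, 0.371%, 0.930% and 0.553% at deeper medians of 2714, 1989, 2285.5 and 2999.5 UMIs. Nuclei of this and the other classes had UMIs of at least 3 class markers and no UMI of the 5 gate genes. Leaving out nuclei with gate UMIs can lower this background, so the contrast with gated nuclei may be too wide. Summed over the 8 genes, gated nuclei held 1517, 1620, 935 and 2687 CPM (here UMIs per 1000000 UMIs of the nuclei named), whereas nuclei without any UMI of the 5 gate genes held 19.9, 23.8, 16.7 and 8.72. Sall1 was also read in other classes, with 18.5 to 27.8 CPM in oligodendrocyte nuclei and 11.2 to 23.2 in astrocyte nuclei, against 141 to 444 in gated nuclei. The 10 border macrophage genes were all at 0 in the gated nuclei of TBI replicate 1 and summed to 57.4, 80.5 and 19.9 CPM in TBI 2, sham and naïve, with 5, 5 and 7 of the 10 at 0. Ms4a7, Pf4, Siglec1 and Clec10a were at 0 in all 4 rats, and Mrc1 was at 0 in TBI 1 and naïve. Of 14 lymphocyte genes 10 to 13 were at 0 in each rat, and the list summed to 98.2, 283, 201 and 155 CPM. Astrocyte markers summed to 1741, 1661, 1770 and 1461 CPM in gated nuclei, against 1443, 1553, 1705 and 1951 over all nuclei. In TBI 1, TBI 2 and sham they exceeded the sum of the 8 genes in gated nuclei, and in naïve they lay below it. Oligodendrocyte markers summed to 705, 1087, 784 and 698 CPM, against 694, 1036, 666 and 569. From 15.6% to 18.7% of gated nuclei carried at least 3 UMIs of 1 other class of brain cell and 1.44% to 4.48% at least 2 UMIs of another leukocyte.

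The share of nuclei that passed this gate did not separate the groups. It was 1.11% for TBI 1, 2.58% for TBI 2, 0.791% for sham and 2.31% for naïve. The order ran sham, TBI 1, naïve, TBI 2, so each group held a low and a high rat. The difference of the means was 0.292 percentage points (two-sided exact permutation p = 0.667, where 2 against 2 cannot go below 0.333). A looser gate (2 UMIs and 0.2%, chosen after seeing the data) gave 3.65% and 5.77% in TBI and 2.39% and 3.38% in sham and naïve. Both TBI rats then lay above both controls, by 1.83 points (exact permutation p = 0.333, the smallest possible). With only the floor lowered to 0.2%, the groups overlapped. TBI then had 2.61% and 3.97%, and sham and naïve had 1.63% and 3.14% (exact permutation p = 0.667). With at least 3 gate genes and no floor, TBI had 2.59% and 3.18%, and sham and naïve had 1.20% and 3.48%. The groups overlapped with every gate that was run except the looser gate chosen after seeing the data. The study itself found microglia by clustering and counted them per group, not per rat. Both of its microglial clusters held a larger share of TBI nuclei than of control nuclei. Those clusters held more nuclei than the gate of 0.5%, so the share that passed this gate is not a full count of microglia.

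Within gated nuclei the 8 genes summed lowest in the sham rat and highest in the naïve rat, and the TBI rats lay between them. This order depended on the gate. With at least 3 of the 5 genes and no floor, TBI 1 had 374 CPM, TBI 2 829, sham 558 and naïve 531. With a floor of 1%, TBI 1 had 4146 CPM, TBI 2 1148, sham 1080 (on 5 UMIs) and naïve 3251. The remaining gates kept the order. Glutamatergic markers in the nuclei of the gate of 0.5% ran in the reverse order, at 786 and 763 CPM in TBI, 915 in sham and 379 in naïve. So did oligodendrocyte precursor markers (536 and 513 CPM in TBI, 724 in sham, 294 in naïve) and the astrocyte markers given above. Oligodendrocyte, GABAergic, endothelial and pericyte markers did not. The part of such RNA in the order of the 8 genes was not tested. The receptor Csf1r was read at 652 (95% exact Poisson interval 511 to 819) and 673 (574 to 784) CPM in TBI 1 and TBI 2, at 382 (270.4 to 525) in sham and at 1082 (942.6 to 1236) in naïve. The naïve interval lay above both TBI intervals, and the sham interval lay below that of TBI 2 and met only the lower end of that of TBI 1. These intervals cover counting error only and not the spread between rats. In edgeR on UMIs summed per rat its Log2FC was -0.22 (SE 0.59, unadjusted p = 0.725).

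Cx3cr1 had the same order, with 348 (248 to 476) and 357 (286 to 440) CPM in TBI, 241 (155 to 359) in sham and 783 (665 to 915) in naïve. Its Log2FC was -0.62 (SE 0.61, edgeR unadjusted p = 0.347). Sall1 was read at 330 and 373 in TBI, 141 in sham and 444 in naïve, with a Log2FC of 0.17 (SE 0.58, edgeR unadjusted p = 0.775). In both genes the controls lay on either side of the injured rats.

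Tmem119 rested on 12, 22, 9 and 39 UMIs in TBI 1, TBI 2, sham and naïve, which came to 107, 90.2, 90.5 and 194 CPM. Gpr34 rested on 5, 19, 4 and 20 UMIs, or 44.6, 77.9, 40.2 and 99.7 CPM. The naïve rat was again the highest in both, and their Log2FC were -0.67 (SE 0.48, edgeR unadjusted p = 0.209) and -0.28 (SE 0.62, edgeR unadjusted p = 0.668). P2ry12 with 1, 5, 1 and 7 UMIs, P2ry13 with 2, 4, 0 and 5 and Selplg with 1, 3, 3 and 5 were too rare in gated nuclei for the test. The sham value of P2ry13, 0 UMIs among 99435, allows up to 37.1 CPM by the same exact Poisson interval.

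**Figure D3:**
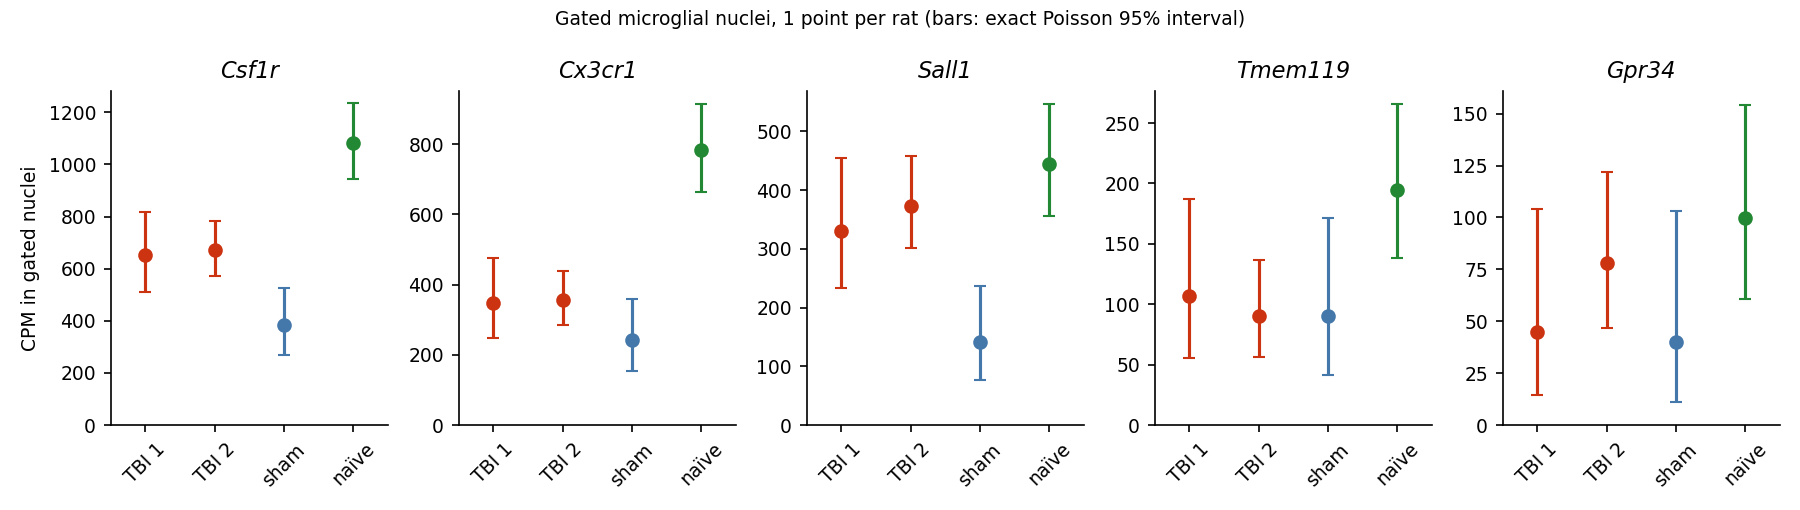
CPM (y axis, from 0) of the 5 better detected genes within gated nuclei, with 1 point per rat (TBI 1, TBI 2, sham and naïve on the x axis) and bars for the 95% exact Poisson interval, which covers counting error only. The naïve rat is the highest in all 5 genes, and for Csf1r, Cx3cr1 and Sall1 both TBI rats lie between sham and naïve.

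None of the 5 genes tested in gated nuclei passed an FDR of 0.01 in edgeR, nor did any of the 4014 genes tested (0% of all), and DESeq2 called 0 genes as well. An unadjusted p under 0.05 was reached by 0 of the 5 and by 38 genes in all (0.947%). Both TBI rats lay above both controls in 0 of the 8 genes, against 13.8% of the genes tested, and below both in Selplg alone, on 1 to 5 UMIs, against 11.0%. The median Log2FC of the 5 genes was -0.28, beside -0.01 over all genes tested. It was -0.67 without the sham rat and 0.66 without the naïve rat, so the direction turned on which control was used. Without the naïve rat the median is over 4 genes, as Gpr34 was then too rare for the test. Against the naïve rat alone Cx3cr1 had -1.11 (edgeR unadjusted p = 0.00124, FDR 0.0211), and against the sham rat alone Sall1 had 1.32 (edgeR unadjusted p = 0.0064, FDR 0.685). Against the naïve rat alone 349 genes were higher and 104 lower at an edgeR FDR under 0.05, of 5864 tested. In each case the lone control was taken to vary like the TBI rats.

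Other homeostatic genes ranked the rats in the same order in the gated nuclei. Their summed level was 8078 and 9365 CPM in TBI, 6517 in sham and 17766 in naïve. Of 22 tested, 4 had a Log2FC above 0 and 18 below, with a median of -0.39 and 0 at an unadjusted p under 0.05 in edgeR. Of 8 microglial transcription factors tested 3 were above 0 and 5 below.

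The UMIs of the 8 genes in gated nuclei as a fraction of the UMIs of all nuclei were split exactly into the share of UMIs that gated nuclei held and the level within them. The log2 ratio of TBI to control was 0.48 in all. Of this, 0.49 lay in the share of UMIs (0.32 from the share of nuclei and 0.17 from UMIs per gated nucleus relative to all nuclei) and -0.02 in the level. For single genes the level part was -0.30 for Cx3cr1, -0.43 for Tmem119, -0.10 for Gpr34, 0.04 for Csf1r and 0.49 for Sall1. With the looser gate the total was 0.74, made of 0.81 from the share and -0.07 from the level. Both parts depended on the rat. Without the naïve rat the total was 1.76, made of 1.01 from the share and 0.75 from the level, and without the sham rat it was -0.80, made of -0.02 and -0.78. The level part of all 4 rats thus averages over controls that gave opposite directions. Without TBI replicate 1 the total of 1.25 held 1.21 from the share and 0.03 from the level, and without TBI replicate 2 the total of -0.29 held -0.23 and -0.06. With 2 rats a group the split is a description of these 4 rats.

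The gate held a minority of the RNA of these genes, 11.4%, 19.2%, 8.81% and 34.8% of their UMIs in TBI 1, TBI 2, sham and naïve. Counted over all nuclei with no gate, which was added after seeing the data, the 8 genes stood at 46.1 and 78.7 CPM in TBI and at 29.9 and 44.5 in sham and naïve. The 5 gate genes stood at 117 and 187 in TBI and at 90.3 and 95.6 in sham and naïve. Both sums were higher in each TBI rat than in each control, although for the 8 genes TBI 1 was only just above naïve. The log2 ratio of TBI to control was 0.72 for the 8 genes, of which 0.67 was shared with the gate genes and 0.05 was left.

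The number of member UMIs per gate gene UMI was 0.394 and 0.421 in TBI, 0.331 in sham and 0.465 in naïve. In each of the 8 genes this ratio was highest in the naïve rat. For Csf1r it was 0.156 and 0.158 in TBI, 0.116 in sham and 0.167 in naïve, and for Cx3cr1 0.0820 and 0.0998 in TBI, 0.0706 in sham and 0.109 in naïve. In these receptors the controls again enclosed the injured rats. For P2ry12 both TBI rats (0.00763 and 0.00636) lay below both controls (0.00784 in sham and 0.00871 in naïve). These ratios rest on only 29 and 31 UMIs of P2ry12 in TBI, 25 in sham and 29 in naïve. Selplg did the same, at 0.00210 and 0.00205 in TBI against 0.00251 and 0.00391. It rests on 8 and 10 UMIs in TBI, 8 in sham and 13 in naïve. For Gpr34 TBI 1 (0.0158) lay below sham (0.0166). The share of all genes with such a separation was not computed, and counting error is large at these counts.

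**Figure D4:**
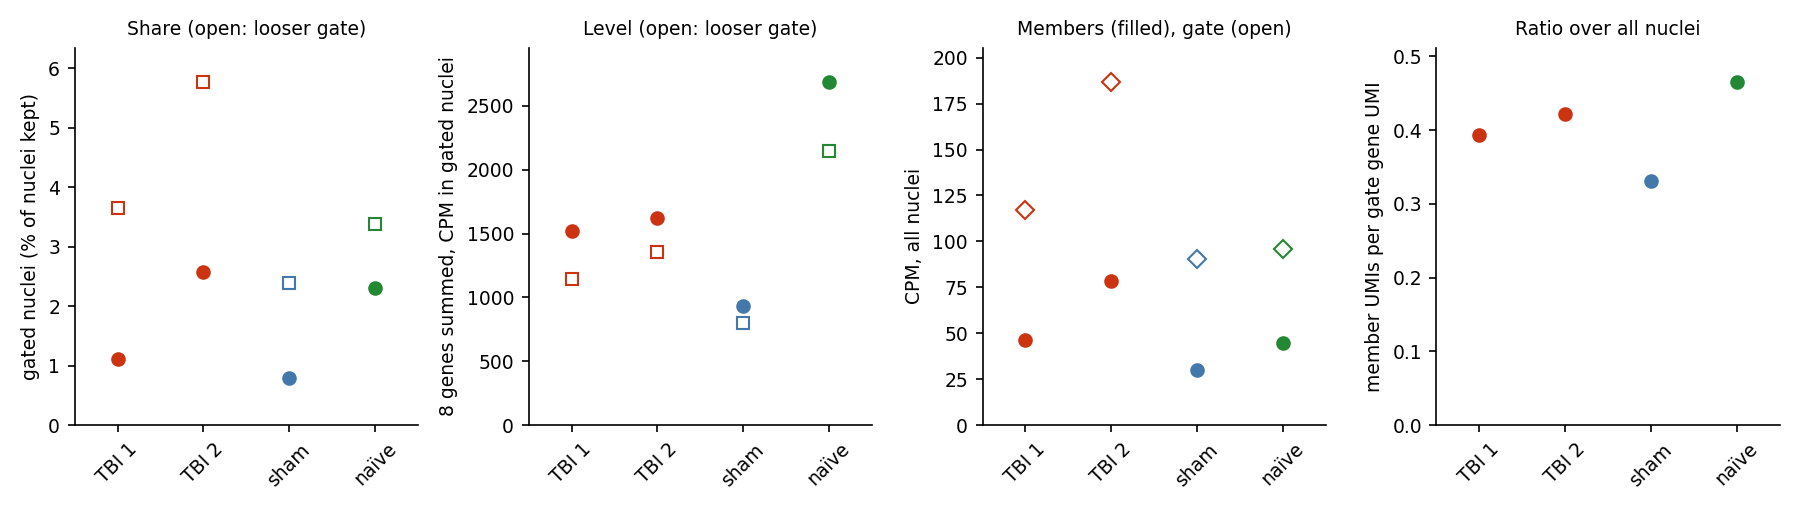
Panels from left to right give, for each rat on the x axis, the share of gated nuclei in percent, the summed level of the 8 genes in gated nuclei, the level of the 8 genes and of the 5 gate genes over all nuclei in CPM, and the ratio of the latter pair, with every y axis from 0 and open marks for the looser gate or the gate genes as titled. Shares and sums over all nuclei are higher in TBI on average, while level and ratio place both TBI rats between sham and naïve.

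In edgeR on UMIs summed over all nuclei, all 8 genes could be tested among 15959. Csf1r had 18.3 and 29.5 CPM in TBI, 10.5 in sham and 16.0 in naïve, and P2ry12 had 0.892 and 1.19 in TBI, 0.708 in sham and 0.833 in naïve. Sall1 had 12.5 and 20.4 in TBI, 9.01 in sham and 11.2 in naïve. In these 3 genes both TBI rats lay above both controls, against 23.8% of all genes tested, whereas Cx3cr1 (9.60 and 18.6 in TBI, 6.38 in sham and 10.4 in naïve) overlapped. The Log2FC was 0.78 (SE 0.33, unadjusted p = 0.0531 in edgeR) for Csf1r, 0.68 (unadjusted p = 0.148 in edgeR) for Cx3cr1, 0.67 (unadjusted p = 0.201 in edgeR) for Tmem119 and 0.63 (unadjusted p = 0.0936 in edgeR) for Sall1. It was 0.40 for Gpr34, 0.35 for P2ry12, -0.02 for Selplg and -0.04 for P2ry13. None of the 8 had an unadjusted p under 0.05, against 2.09% of all genes that did with a higher level in TBI, and 0% of genes passed an FDR of 0.01 in edgeR. The median Log2FC of the 8 was 0.52, and with any 1 rat left out it was 0.12 to 0.95.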

How the data were processed

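Bulk RNA-seq libraries (3 sham, 3 TBI) and single-nucleus libraries (2 TBI, 1 sham, 1 naïve) of the rat dentate gyrus were analysed. For bulk the authors assigned reads with kallisto to Rnor_6.0 and deposited estimated counts per transcript, not normalized. A second deposited table holds 14166 genes on the log2 CPM scale, filtered by the authors on annotation, low counts and low variance. Undoing its log2 (pseudocount 0.5) with a total for each library gave gene counts, which were rounded to whole numbers. Each total was worked out from the lowest value of the library, taken as a count of 0. These totals were 24730290 to 43912297, while the transcript counts summed to 25121893 to 44649404. For 7 of the 8 genes, all but Csf1r, the value equalled that of a single transcript within 0.001, so it may stand for 1 isoform. Members, gene rows and symbols were matched through Entrez numbers. For nuclei the deposited matrices are UMI counts made by the authors with Cell Ranger, introns included. From 1.63% to 27.4% of stored entries were 0 and were read as 0. For kallisto no version is given in these sources.

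The study's filters were applied (minimum of 500 UMIs, 300 features and 0.8 for log10 genes per UMI, at most 5% mitochondrial and 2% ribosomal UMIs). Doublets were not called. Nuclei with markers of other classes were left out as an alternative. Counts were tested with edgeR 4.0.16 (quasi-likelihood, TMM, Benjamini-Hochberg over all genes tested) in R 4.3.3, with DESeq2 1.42.0 and limma 3.58.1 as alternatives, after the code was tested on simulated data. Single values were compared by exact permutation tests in code of their own, which was checked against scipy 1.17.1. Figures were drawn in matplotlib 3.10.9. Surgery periods came from the deposited metadata. Intervals on UMIs are exact Poisson at 95% and cover counting error only. Per the study's methods each library came from a rat of its own.

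The 8 genes, the gate and the other lists were chosen with earlier results of these data known. The text names each of the 8 genes, the 5 gate genes, every ligand or partner measured, the 3 genes of smallest bulk p in the lists of other homeostatic genes and of transcription factors, and the 10 genes most like the mean of the 8. Not every gene that this rule names is reported here.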

Additional observations from a re-analysis of the deposited data

How the results depend on the processing

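In bulk, the 8 genes stayed above 0 under every alternative run, with a median Log2FC of 0.58 to 1.04 over libraries left out and 0.76 to 0.86 over the other settings. The number of the 8 called at an FDR of 0.01 was 0 in edgeR and limma, 1 in DESeq2 and 4 in DESeq2 adjusted only over genes with p under 0.05. DESeq2 called 166 genes higher and 3 lower in all, or 462 and 13 with the narrower adjustment. Bulk libraries of the same replicate number had correlations of deviations of 0.35, 0.17 and -0.03. Libraries of unlike number were not compared, so these values do not settle whether the numbers pair the libraries. With the replicate number as a block the median was 0.76, 0 of the 8 were called and 8 had an unadjusted p under 0.05 in edgeR. In all, 1 gene was called, and 59 genes were higher and 2 lower at an edgeR FDR under 0.05. The relative median of -0.22 is the same with the block by construction. It ran from -0.29 to -0.06 with each library left out. Sums of transcripts per gene were not run, as no table used here pairs the transcripts with genes.

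In nuclei the difference in share was -0.129 percentage points with a gate of 1%, and -0.469 to 1.05 with each rat left out. With the 1% gate, the ratio of members over all nuclei was -0.41 and its share part -0.63, on 5 UMIs in the sham rat. With each rat left out that ratio was -0.80 to 1.76 and the median in gated nuclei -0.67 to 0.66, positive only without the naïve rat (0.66). Single genes in gated nuclei changed direction for Cx3cr1 with the 1% gate (0.11) and Csf1r with at least 3 gate genes (0.20). With each rat left out, the ranges that crossed 0 were -1.11 to 0.53 for Cx3cr1, -0.97 to 0.078 for Tmem119 and -0.67 to 0.78 for Csf1r. Each of these 3 genes was positive without the naïve rat alone. The range was -0.29 to 1.32 for Sall1, negative without the sham rat. For Gpr34 it was -0.69 to 0.071, positive without TBI replicate 1, but Gpr34 could not be tested without the naïve rat. Over all nuclei the ranges that crossed 0 were -1.02 to 1.505 for P2ry13 and -0.37 to 0.39 for Selplg. Both were positive without TBI replicate 1 (0.58 and 0.29) or the naïve rat. The range for Gpr34 was -0.13 to 0.79, negative without TBI replicate 2. The cause of these changes was not tested. With 99435 to 243785 UMIs in gated nuclei per rat, P2ry12, P2ry13 and Selplg could not be compared.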
